A study of Mus musculus with 6 samples.

Results

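The genes of the BMP and TGF-beta pathways were compared between colonies grown from the bone marrow of *Col10a1Cre; Rosa26fs-tdTomato* mice. The 53 genes, chosen by name, were ligands, receptors, extracellular antagonists, SMAD proteins, ID target genes and latent TGF-beta binding proteins, and 52 of them had values among the 14735 genes of the table. *Bmp7* was not analysed here. Both groups came from 2-month-old mice of the strain C57BL/6 that carried Cre recombinase under the *Col10a1* promoter and a *Rosa26* reporter that makes tdTOMATO once Cre has acted. *Col10a1* encodes collagen X of hypertrophic chondrocytes, so the tdTOMATO+ cells of the 3 tdTOMATO+ colonies descend from cells in which this promoter had been active. The 3 tdTOMATO- colonies come from marrow of the same genotype and were picked as negative for the reporter. A CFU-F (colony-forming unit, fibroblastic) is a colony of adherent marrow cells grown from sparse plating. Here each was picked by its fluorescence at day 10 of hypoxic culture and lysed whole inside 1 cloning cylinder, without sorting of its cells. Neither the labels nor the methods say which mouse each colony came from, so the p-values measure the spread between these colonies, which may in part be technical.

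Ligands of this family are secreted dimers that bring together type I and type II receptors, and the receptors then phosphorylate SMAD proteins that enter the nucleus with SMAD4. BMP ligands mostly act through SMAD1, SMAD5 and SMAD9, and TGF-beta and activins through SMAD2 and SMAD3. Antagonists such as noggin and gremlin trap BMPs outside the cell, follistatin traps activins, and SMAD6 and SMAD7 are inhibitors inside the cell. In the skeleton, BMPs are known for their ability to induce cartilage and bone. TGF-beta is stored in bone matrix in a latent form held by some members of the LTBP family, and such storage was not tested here.

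Values are normalized counts, that is, reads per gene divided by a size factor for each library, and 24085516 to 31046589 reads fell in genes per colony. The main test was limma, fitted to log2-transformed normalized counts with 1 added, and Benjamini-Hochberg adjustment covered the 14735 genes of the table. A gene was called at an adjusted p under 0.05. With 3 colonies in each group, an exact permutation p for a single gene cannot be smaller than 0.1. The colonies of both groups also held leukocytes. Their 18 macrophage and monocyte markers summed to 82586 to 86744 normalized counts in tdTOMATO+ and 47057 to 48416 in tdTOMATO- colonies. The 12 markers shared by all leukocytes summed to 20651 to 24837 in tdTOMATO+ and 13384 to 13883 in tdTOMATO- colonies. Of these markers, 13 of the 18 and 10 of the 12 were called higher in tdTOMATO+ colonies. limma called 0 of the markers of pericytes, marrow stroma, osteoblasts and chondrocytes in the lists used. edgeR called *Ibsp*, a bone matrix gene, higher, and DESeq2 called *Ibsp*, the osteoblast factor *Runx2* and the stromal marker *Lepr* higher and *Cspg4* and *Sox9* lower. At an unadjusted p under 0.05, limma had 5 of these markers higher and 3 lower (all genes, 7.53% higher and 4.79% lower). The lists with values held 11 pericyte and vascular smooth muscle, 12 marrow stroma, 11 osteoblast and 7 chondrocyte markers. Of the osteoblast markers, 4 were higher and 1 was lower. *Lepr* had 408, 354 and 1132 normalized counts in tdTOMATO+ colonies against 97.3, 69.4 and 108 in tdTOMATO- colonies, which did not overlap, and its part in the results was not tested.

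Of the 52 genes, 1 was called higher in tdTOMATO+ colonies, *Tgfbr2*, against 1.20% of all genes, and 1 was called lower, *Bmp5*, against 0.143% of all genes. edgeR on the recovered reads called the same pair, against 1.11% of all genes higher and 0.129% lower. DESeq2 called 3 higher, *Tgfbr2*, *Bmp3* and *Gdf6*, against 3.52% of the genes it tested, and 1 lower, *Bmp5*, against 1.12%. At an unadjusted p under 0.05, limma had 5 genes higher (all genes, 7.53%) and 4 lower (all genes, 4.79%). The median log2 fold change (tdTOMATO+ over tdTOMATO-) was 0.03 over the 52 genes and -0.00461 over all genes. Most of the pathway thus had no difference past the test. The 95% interval of the fold change lay within 2-fold in either direction for 29 of the 52 genes (55.8%), against 73.0% of all genes. It did so for 7 of 8 SMAD genes, 5 of 7 TGF-beta and activin ligands, 3 of 4 latent TGF-beta binding proteins, 8 of 12 receptors, 4 of 8 antagonists, 2 of 4 ID genes and 0 of 9 BMP ligands. No test was made between classes.

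**Figure D1:**
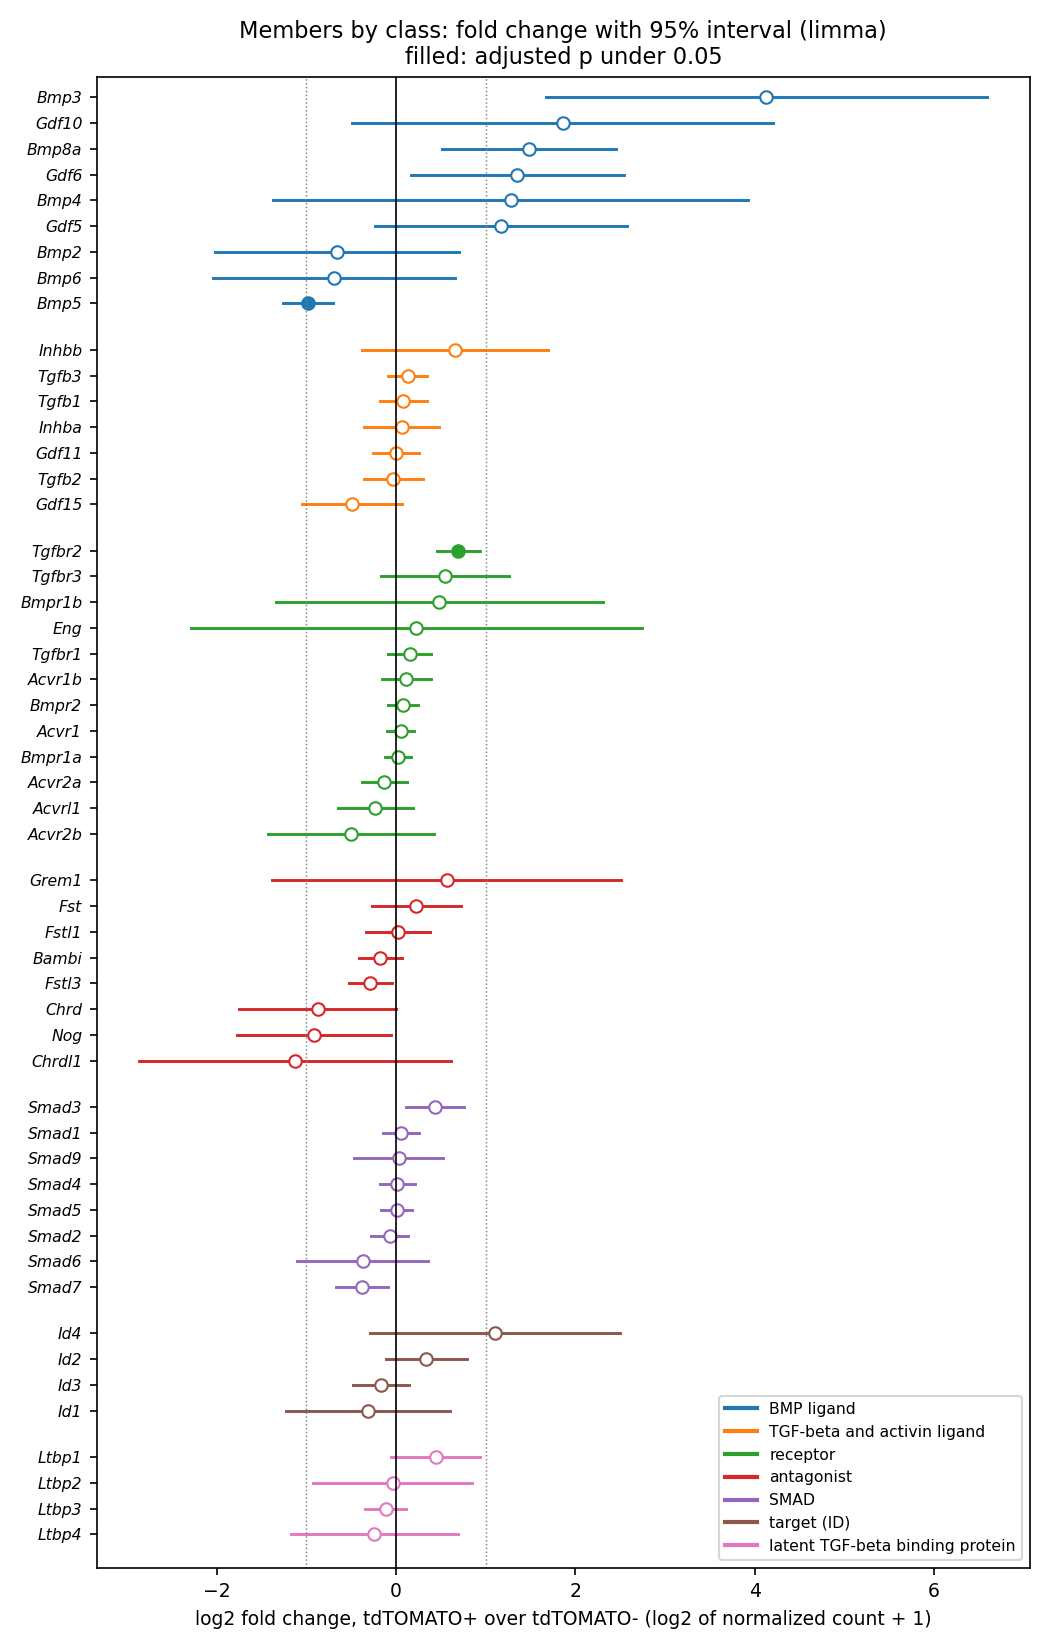
Log2 fold change (tdTOMATO+ over tdTOMATO-, on log2 of the normalized count plus 1) of the 52 genes, grouped by class; lines are 95% intervals from limma with 3 colonies per group, dotted lines mark 2-fold, and filled points have an adjusted p under 0.05. *Tgfbr2* and *Bmp5* are the filled points, and the BMP ligands spread from 4.13 for *Bmp3* to -0.99 for *Bmp5*.

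Among the 9 BMP ligands, *Bmp5* was the most abundant per length of exon in every colony and was lower in tdTOMATO+ colonies. *Bmp5* encodes a BMP that in mice is needed for normal shape of several skeletal elements. Its normalized counts were 1624, 1413 and 1772 in tdTOMATO+ colonies, against 3122, 3630 and 2791 in tdTOMATO- colonies. All 3 tdTOMATO+ colonies lay below all 3 tdTOMATO- colonies, and the highest was within 1.25-fold of the lowest in tdTOMATO+ and within 1.30-fold in tdTOMATO- colonies. The fold change was 1.98-fold lower in tdTOMATO+ (log2 fold change -0.99, SE 0.12, 95% interval -1.26 to -0.71, limma adjusted p = 0.015). The adjusted p was 0.0205 with edgeR and 5.64e-10 with DESeq2. With 1 colony left out in turn, the log2 fold change stayed between -1.08 and -0.89, and the adjusted p was 0.0641 without tdTOMATO+ replicate 1, 0.0791 without tdTOMATO+ replicate 2, 0.0615 without tdTOMATO- replicate 2 and at most 0.0344 without each of the other 3.

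Per kb of exon, *Bmp5* reached 403, 351 and 440.1 normalized counts in tdTOMATO+ colonies and 776, 902 and 693 in tdTOMATO- colonies. All 9 BMP ligands together came to 693, 548 and 718 per kb in tdTOMATO+ colonies and 855, 1152 and 896 in tdTOMATO- colonies. *Bmp5* made up 58.2%, 64.0% and 61.3% of that sum in tdTOMATO+ colonies and 90.8%, 78.3% and 77.4% in tdTOMATO- colonies. The lower sum in tdTOMATO+ colonies comes from *Bmp5* itself, since the other 8 ligands together had 289, 197 and 278 per kb in tdTOMATO+ colonies and 78.8, 250.5 and 202 in tdTOMATO- colonies, which overlapped. *Bmp4*, the next in order, made up 23.0%, 25.3% and 22.2% of the sum in tdTOMATO+ colonies and 1.25%, 13.0% and 16.6% in tdTOMATO- colonies.

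**Figure D2:**
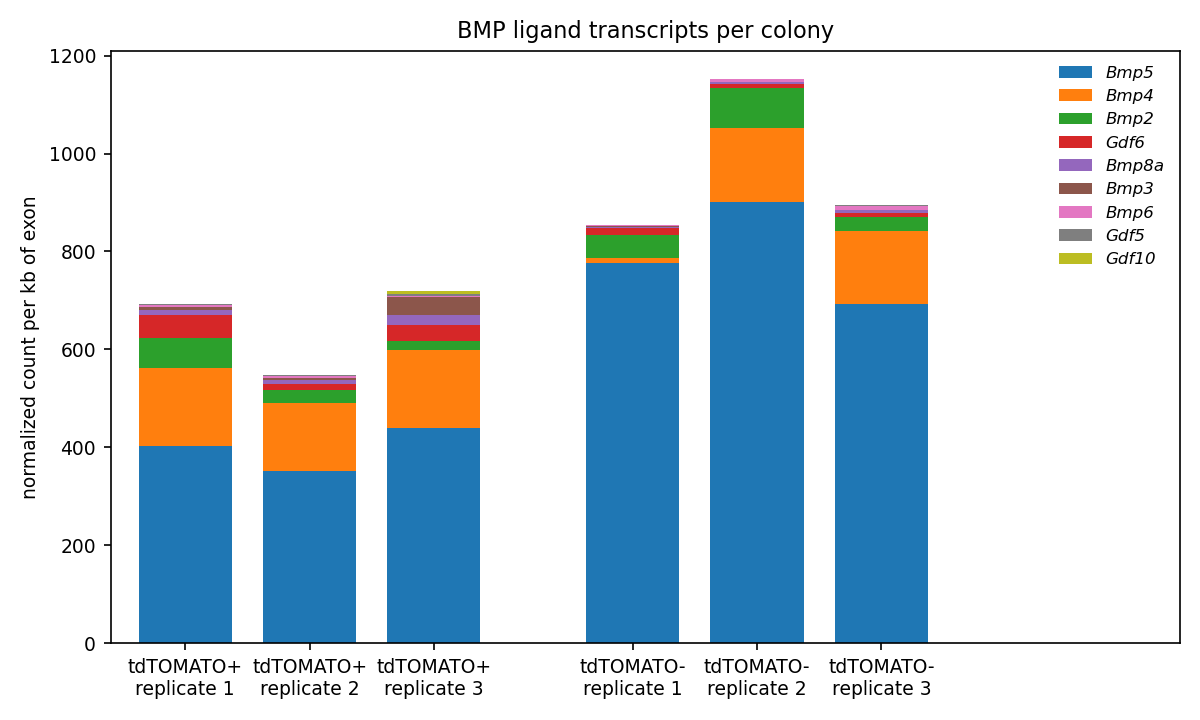
Normalized counts per kb of exon of the 9 BMP ligands, stacked for each of 3 tdTOMATO+ and 3 tdTOMATO- colonies. *Bmp5* is the tallest segment in every bar, and the *Bmp4* segment is all but missing in tdTOMATO- replicate 1 (10.7 per kb).

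Several BMP ligands of low level had their larger values in tdTOMATO+ colonies without passing the main test. *Bmp3*, which encodes a BMP known as a negative regulator of bone density, had 47.4, 23.2 and 275 normalized counts in tdTOMATO+ colonies, against 9.16, 0.964 and 2.00 in tdTOMATO- colonies. The groups did not overlap, but tdTOMATO+ replicate 3 lay 2.51 above the next colony on the log2 scale, and the tdTOMATO- values rest on 8, 1 and 2 reads. The log2 fold change was 4.13 (SE 1.03, 95% interval 1.67 to 6.60), with an adjusted p of 0.156 in limma, 0.14 in edgeR and 0.00847 in DESeq2, and it was 3.13 without tdTOMATO+ replicate 3. Only DESeq2, of the 3 tools, therefore called it.

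*Gdf6*, a BMP-type ligand of joint and skull development, had 167, 41.2 and 119 normalized counts in tdTOMATO+ colonies, against 45.8, 32.8 and 31.1 in tdTOMATO- colonies. The groups overlapped through tdTOMATO+ replicate 2, and the log2 fold change of 1.35 (SE 0.50) had an adjusted p of 0.330 in limma and 0.0391 in DESeq2. *Bmp8a* had 24.7, 23.2 and 48.2 in tdTOMATO+ colonies, against 8.01, 8.68 and 15.0 in tdTOMATO- colonies (log2 fold change 1.48, SE 0.42, limma adjusted p = 0.184). The groups of *Bmp8a* did not overlap. Its related neighbour *Bmp8b* had 55.7, 24.9 and 35.2 in tdTOMATO+ and 67.6, 28.9 and 24.1 in tdTOMATO- colonies. Only reads with a unique hit were kept, so reads that fit both genes would be missing from both counts. The level of each gene is thus uncertain. *Gdf5*, a joint-forming ligand, also did not overlap, at 5.16, 4.29 and 10.0 in tdTOMATO+ colonies against 1.14, 1.93 and 4.01 in tdTOMATO- colonies (log2 fold change 1.17, limma adjusted p = 0.50). These are counts of a few reads, where counting error is large.

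*Gdf10*, a ligand close to *Bmp3* in sequence, had 4.12, 6.00 and 25.1 normalized counts in tdTOMATO+ colonies, against 0, 0.964 and 9.02 in tdTOMATO- colonies (log2 fold change 1.86, limma adjusted p = 0.528). As for *Bmp3*, tdTOMATO+ replicate 3 was the highest colony. *Bmp2* and *Bmp6*, both bone-inducing ligands, had log2 fold changes of -0.66 (limma adjusted p = 0.738) and -0.69 (0.727), with overlapping groups. *Bmp6* averaged 14.7 normalized counts and shares 224 exonic bases with *Txndc5* on the opposite strand, which averaged 11688, and the strand setting of the read counting is not given in the sources used here, so its reads may belong to either gene. Over the class, 6 of 9 log2 fold changes were above 0, against 49.0% of all genes. Their median, 1.28, is the value of *Bmp4*, which rests on 1 low colony, and it was 0.89 without tdTOMATO- replicate 1 and 0.64 with a pseudocount of 10.

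The TGF-beta and activin ligands were abundant and close between groups, and of the 7, limma, edgeR and DESeq2 called 0. At an unadjusted p under 0.05, limma had 0 as well (all genes, 7.53% higher and 4.79% lower). *Tgfb3*, a TGF-beta isoform, led the class with 7001, 8343 and 7149 normalized counts in tdTOMATO+ colonies, against 7397, 6400 and 6694 in tdTOMATO- colonies, an overlap of the groups with a log2 fold change of 0.13 (95% interval -0.08 to 0.35). Per kb it averaged 2216 in tdTOMATO+ and 2019 in tdTOMATO- colonies, ahead of the next in its class, *Inhba*, a subunit of activin A, at 1062 per kb in tdTOMATO+ and 1010 per kb in tdTOMATO- colonies. *Tgfb1*, *Tgfb2*, *Inhba* and *Gdf11*, a ligand related to myostatin, had log2 fold changes from -0.03 to 0.08, and their 95% intervals lay within 2-fold. *Inhbb*, a subunit of activin B, had a wider spread (1237, 1730 and 1876 in tdTOMATO+ colonies, 875, 638 and 1837 in tdTOMATO- colonies). *Gdf15*, a stress-induced ligand, had 473, 458 and 423 in tdTOMATO+ colonies, against 428, 755 and 789 in tdTOMATO- colonies. For both genes the groups overlapped and limma made no call. The log2 fold change was 0.66 for *Inhbb* (adjusted p = 0.631) and -0.49 for *Gdf15* (adjusted p = 0.467). Without tdTOMATO- replicate 1, the tdTOMATO- colony with the lowest value, *Gdf15* was however called lower (log2 fold change -0.77, limma adjusted p = 0.0192). That fit called 44 of all 14735 genes lower, against 21 with every colony kept.

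Of the 12 receptors, *Tgfbr2*, the type II receptor that binds TGF-beta and starts its signal, was called higher in tdTOMATO+ colonies. It had 4207, 4255 and 5266 normalized counts in tdTOMATO+ colonies, against 3011, 2738 and 2688 in tdTOMATO- colonies, and the groups did not overlap. The difference was 1.62-fold (log2 fold change 0.70, SE 0.10, 95% interval 0.46 to 0.93, limma adjusted p = 0.0249), with adjusted p of 0.0303 in edgeR and 1.16e-06 in DESeq2. With 1 colony left out in turn the log2 fold change stayed between 0.59 and 0.75, and the adjusted p was 0.0678 and 0.0942 without tdTOMATO+ replicates 1 and 2, 0.103 and 0.0725 without tdTOMATO- replicates 2 and 3, and at most 0.0407 without either of the other 2. Leukocytes also express *Tgfbr2*, and the macrophage and leukocyte marker sums given above were higher in tdTOMATO+ colonies, with no overlap either. Their part in the *Tgfbr2* difference was not tested. In whole colonies, a change in the number of cells of a type and a change in RNA per cell cannot be told apart. This holds for any gene here, *Bmp5* included.

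Its partner *Tgfbr1*, the type I receptor for TGF-beta, had 3630, 3339 and 3721 normalized counts in tdTOMATO+ colonies, against 3553, 3360 and 2761 in tdTOMATO- colonies, which overlapped (log2 fold change 0.15, 95% interval -0.09 to 0.39). The co-receptor *Tgfbr3* (betaglycan), which presents ligand to TGFBR2, did not overlap, at 3002, 2474 and 2771 in tdTOMATO+ colonies against 1160, 2415 and 2351 in tdTOMATO- colonies. Its log2 fold change of 0.55 (adjusted p in limma = 0.541) became 0.20 without tdTOMATO- replicate 1, whose value set most of it. *Bmpr1a*, a type I BMP receptor that averaged 615 per kb in tdTOMATO+ and 604 in tdTOMATO- colonies, had 3807, 3893 and 4015 in tdTOMATO+ colonies against 3750, 3991 and 3763 in tdTOMATO- colonies, an overlap with a log2 fold change of 0.03 (95% interval -0.12 to 0.17). *Bmpr2*, *Acvr1*, *Acvr1b*, *Acvr2a* and *Acvrl1*, receptors for BMPs or activins, had log2 fold changes from -0.23 to 0.12. *Bmpr1b* and *Acvr2b* had at most 21.2 normalized counts in any colony. *Acvr2a* shares 446 exonic bases with *Orc4* on the opposite strand, *Eng* 61 with *Fpgs* and *Ltbp2* 764 with *D030025P21Rik*, so part of their reads may belong to those genes.

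**Figure D3:**
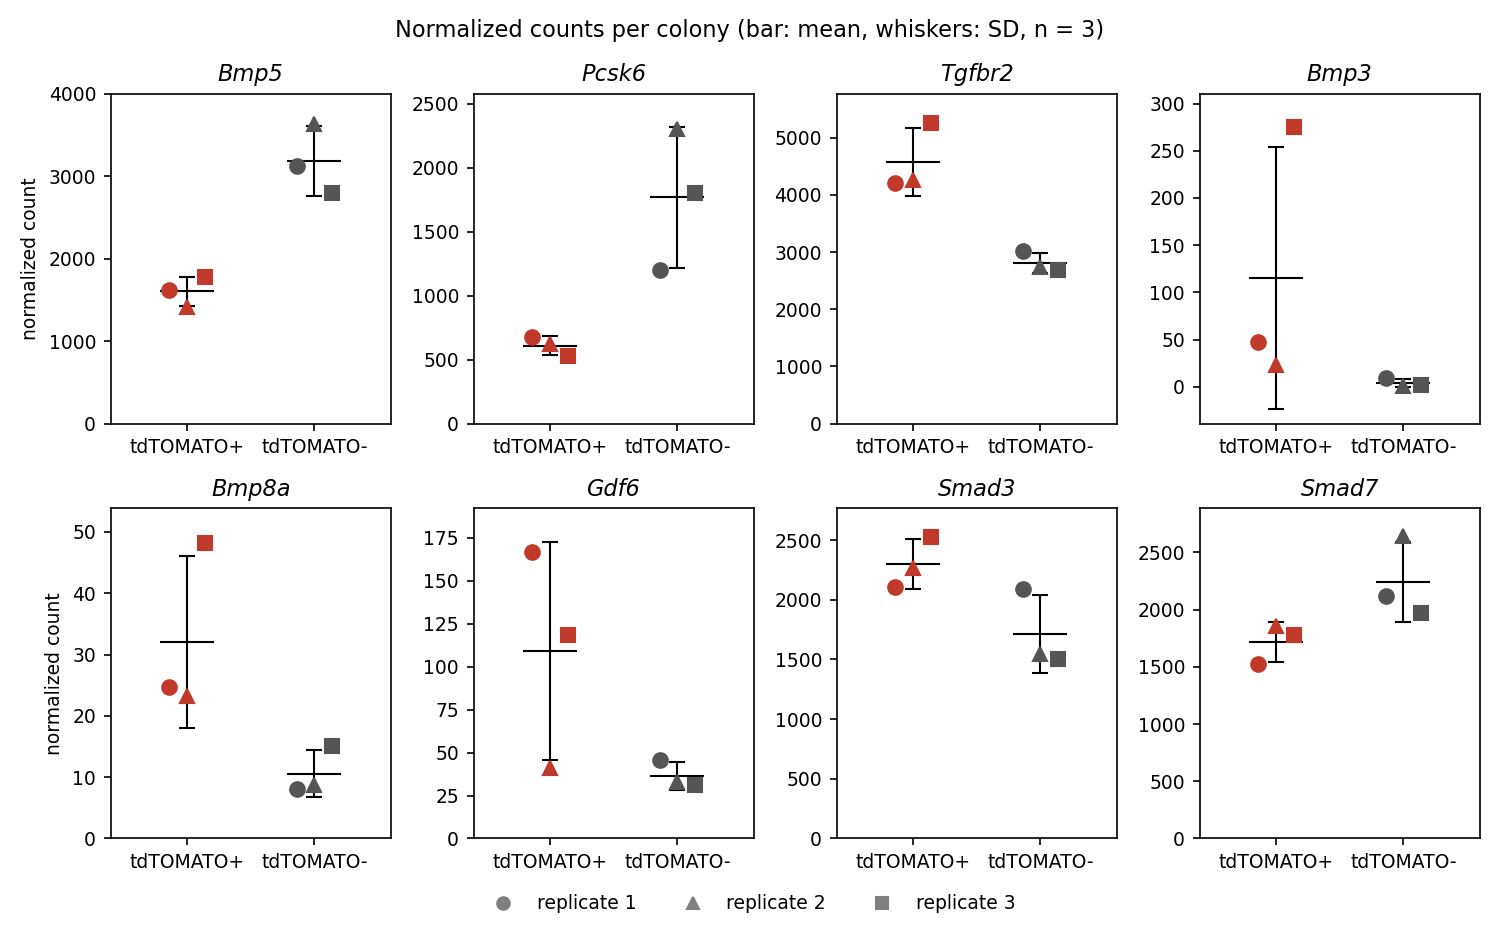
Normalized counts in each of 3 tdTOMATO+ and 3 tdTOMATO- colonies for 7 genes of the set and for *Pcsk6*, a protease gene of the pathway; points are colonies, and bars and whiskers are mean and SD. *Bmp5* and *Pcsk6* lie lower and *Tgfbr2* higher in all 3 tdTOMATO+ colonies, and the *Bmp3* mean is raised by tdTOMATO+ replicate 3 (275).

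Both called genes lie on mouse chromosome 9, and the 250 bases before their transcription starts are shown because they are the regulatory sequence nearest to the genes that differed. *Bmp5* (ENSMUSG00000032179) spans chr9:75775364-75900310 on the plus strand, and *Tgfbr2* (ENSMUSG00000032440) spans chr9:116084293-116175360 on the minus strand, in GENCODE M21 on GRCm38. The promoter stretches, from RefSeq on GRCm38.p6, are chr9:75775115-75775364 (plus strand) and chr9:116175364-116175613 (minus strand), written 5′ to 3′. Capitals mark CAGAC on either strand (read as GTCTG on the other), the short element that SMAD3 and SMAD4 can bind.
Bmp5: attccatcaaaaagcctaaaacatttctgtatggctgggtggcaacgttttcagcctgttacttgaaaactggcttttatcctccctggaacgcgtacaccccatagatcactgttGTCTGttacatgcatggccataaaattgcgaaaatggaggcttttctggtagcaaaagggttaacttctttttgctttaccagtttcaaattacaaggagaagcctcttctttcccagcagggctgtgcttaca
Tgfbr2: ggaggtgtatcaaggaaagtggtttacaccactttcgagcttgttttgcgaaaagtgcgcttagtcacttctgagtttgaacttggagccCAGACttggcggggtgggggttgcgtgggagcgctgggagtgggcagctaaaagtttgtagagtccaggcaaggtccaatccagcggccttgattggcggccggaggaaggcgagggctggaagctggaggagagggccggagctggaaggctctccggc
Each held 1 such site, starting 134 bases before the transcription start in *Bmp5* and 160 bases before it in *Tgfbr2*. The 5 letters are common, since 42.2% of 32851 promoters of this length held them. RefSeq promoters were matched for 37 of the 53 genes, and 22 of their 46 promoters (47.8%) held a site. A match is a description of letters and not evidence of binding.

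Of the 8 antagonists, none was called by limma, edgeR or DESeq2. At an unadjusted p under 0.05, limma had 2 lower, *Nog* and *Fstl3* (25%, against 4.79% of all genes), and 0 higher (all genes, 7.53%). *Fstl1*, a secreted glycoprotein of the follistatin family, was by far the most abundant, with 66069, 68305 and 75519 normalized counts in tdTOMATO+ colonies against 57735, 65259 and 86665 in tdTOMATO- colonies, an overlap with a log2 fold change of 0.02. *Nog* (noggin, which blocks BMPs) had 215, 150.1 and 105 in tdTOMATO+ colonies, against 200.4, 261 and 437 in tdTOMATO- colonies. The groups overlapped through tdTOMATO+ replicate 1, and the log2 fold change was -0.91 (95% interval -1.78 to -0.05, limma adjusted p = 0.374). *Chrd* (chordin, another BMP trap) had 23.7, 38.6 and 70.3 in tdTOMATO+ colonies, against 79.0, 73.3 and 71.2 in tdTOMATO- colonies. The groups of *Chrd* lay next to each other without overlap, and the log2 fold change of -0.87 had a limma adjusted p of 0.407.

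*Fstl3*, which binds activins, had 1119, 1265 and 1253 normalized counts in tdTOMATO+ colonies, against 1598, 1285 and 1564 in tdTOMATO- colonies, with no overlap (log2 fold change -0.29, limma adjusted p = 0.304). *Bambi*, a decoy receptor that lacks a kinase, had 394, 378 and 374 in tdTOMATO+ colonies, against 427, 395 and 478 in tdTOMATO- colonies, again without overlap (log2 fold change -0.18, limma adjusted p = 0.567). *Fst* (follistatin) had overlapping groups and a log2 fold change of 0.23. Counting all classes, 7 of the 52 genes lay higher in every tdTOMATO+ colony than in any tdTOMATO- colony (13.5%, against 9.89% of all genes) and 5 lay lower (9.62%, against 8.33%), shares near those of all genes. The 7 were *Bmp3*, *Bmp8a*, *Gdf5*, *Tgfbr2*, *Tgfbr3*, *Smad3* and *Id4*, and the 5 were *Bmp5*, *Chrd*, *Fstl3*, *Bambi* and *Smad7*.

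The SMAD genes had the largest share of intervals within 2-fold of the 7 classes, 7 of 8 (87.5%, against 73.0% of all genes). None was called by limma, edgeR or DESeq2. At an unadjusted p under 0.05, limma had 1 higher, *Smad3* (12.5%, against 7.53% of all genes), and 1 lower, *Smad7* (12.5%, against 4.79%). *Smad1*, *Smad5* and *Smad9*, which carry BMP signals, *Smad2* and the shared *Smad4* had log2 fold changes from -0.07 to 0.06, and the group means of *Smad4* were 721 per kb in tdTOMATO+ and 715 in tdTOMATO- colonies. *Smad3*, which carries TGF-beta and activin signals, had 2112, 2267 and 2528 normalized counts in tdTOMATO+ colonies, against 2093, 1542 and 1506 in tdTOMATO- colonies. The groups did not overlap, though the highest tdTOMATO- colony nearly reached the lowest tdTOMATO+ colony, and the log2 fold change was 0.44 (95% interval 0.11 to 0.76, limma adjusted p = 0.241). Without tdTOMATO- replicate 1, the tdTOMATO- colony with the highest value, *Smad3* was called higher (log2 fold change 0.59, limma adjusted p = 0.0309). That fit called 178 of all 14735 genes higher, against 177 with every colony kept.

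The inhibitory *Smad7* had 1522, 1856 and 1783 normalized counts in tdTOMATO+ colonies, against 2123, 2640 and 1974 in tdTOMATO- colonies, with no overlap (log2 fold change -0.38, 95% interval -0.67 to -0.09, limma adjusted p = 0.268). The inhibitory *Smad6* had 1596, 1834 and 1542 in tdTOMATO+ colonies, against 1338, 3045 and 2408 in tdTOMATO- colonies, which overlapped through tdTOMATO- replicate 1. Its log2 fold change was -0.37 (limma adjusted p = 0.718). Without that colony, which had the lowest value, *Smad6* was called lower (log2 fold change -0.71, limma adjusted p = 0.0445). That fit called 44 of all 14735 genes lower, against 21 with every colony kept.

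The ID genes encode inhibitors of basic helix-loop-helix factors and are direct targets of BMP signalling. None of the 4 was called by limma, edgeR or DESeq2. None had an unadjusted p under 0.05 in limma either (all genes, 7.53% higher and 4.79% lower). *Id3*, the most abundant, had 6866, 6226 and 5057 normalized counts in tdTOMATO+ colonies, against 7535, 6870 and 5903 in tdTOMATO- colonies, an overlap with a log2 fold change of -0.17 (95% interval -0.48 to 0.15). *Id1* and *Id2* overlapped too, with log2 fold changes of -0.31 and 0.34. *Id4* did not overlap, at 1008, 1431 and 1238 in tdTOMATO+ colonies against 231, 843 and 916 in tdTOMATO- colonies, but its log2 fold change of 1.11 (adjusted p in limma = 0.518) became 0.47 without tdTOMATO- replicate 1. The latent TGF-beta binding proteins were led by *Ltbp2* per length of exon, with 11618, 17547 and 12482 in tdTOMATO+ colonies against 8712, 22154 and 14303 in tdTOMATO- colonies, an overlap with a log2 fold change of -0.04. *Ltbp1*, *Ltbp3* and *Ltbp4* had log2 fold changes from -0.25 to 0.44, and limma, edgeR and DESeq2 called none of the 4. At an unadjusted p under 0.05, limma had 0 (all genes, 7.53% higher and 4.79% lower).

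Colonies of the same group could differ more than the groups did. In 9 of the 52 genes (17.3%), against 5.6% of all genes, 1 colony lay at least 2-fold above or below the nearest of the other 5. In tdTOMATO- replicate 1, 4 of the 52 genes (7.69%) were lowest by that margin, against 0.835% of all genes. These were *Bmp4*, *Eng*, *Id4* and *Tgfbr3*. *Bmp4*, a bone-inducing ligand, had 358, 312 and 359 normalized counts in tdTOMATO+ colonies, against 24.0, 336 and 334 in tdTOMATO- colonies, so that 5 colonies were alike and 1 was low. Its log2 fold change of 1.28 (adjusted p in limma = 0.731) became 0.03 without tdTOMATO- replicate 1. *Eng* (endoglin, a co-receptor of endothelium and stroma) had 1167, 2085 and 2556 in tdTOMATO+ colonies, against 324, 3785 and 3161 in tdTOMATO- colonies. The tdTOMATO- colonies thus held both the lowest and the highest *Eng*, and its log2 fold change of 0.23 (adjusted p in limma = 0.965) became -0.91 without tdTOMATO- replicate 1. It was -0.32 in both edgeR and DESeq2, so no direction holds for it. Endothelial markers were low, since 5 of 14 had no values in the table and the other 9 summed to 285 to 307 normalized counts in tdTOMATO+ and 181 to 259 in tdTOMATO- colonies. Of the 12 marrow stroma markers, 7 were lowest in tdTOMATO- replicate 1 and 2, *Grem1* and *Prrx1*, were highest there. This is a plain rank, and the share of all genes lowest in this colony was not counted. The gap of the 7 to the next colony ran from 0.0161 (*Foxc1*) to 5.21 (*Adipoq*) on the log2 scale. *Pdgfra*, one of the 7, had 2018, 1590.0 and 1836 in tdTOMATO+ colonies against 874, 2815 and 3546 in tdTOMATO- colonies. The part of the stroma in these differences was not tested.

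**Figure D4:**
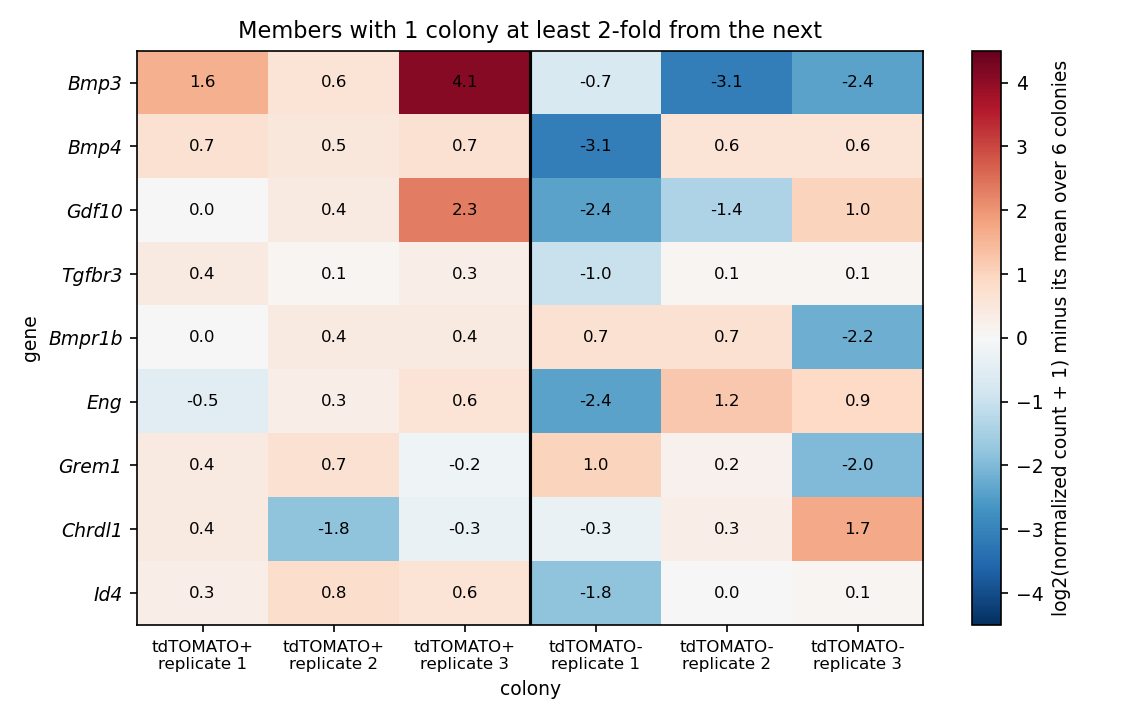
Log2 of the normalized count plus 1, minus its mean over 6 colonies, for the 9 genes in which 1 colony lay at least 2-fold from the next, in 3 tdTOMATO+ and 3 tdTOMATO- colonies. The low values of *Bmp4*, *Eng*, *Id4* and *Tgfbr3* fall in tdTOMATO- replicate 1, and those of *Grem1* and *Bmpr1b* in tdTOMATO- replicate 3.

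In tdTOMATO- replicate 3, *Grem1* and *Bmpr1b* were lowest by that margin and *Chrdl1* was highest. *Grem1* (gremlin, a BMP trap that also marks skeletal progenitors in mice) had 1451, 1784 and 944 normalized counts in tdTOMATO+ colonies, against 2163, 1243 and 281 in tdTOMATO- colonies. The range within tdTOMATO- colonies was thus wider than the difference between groups, with a log2 fold change of 0.56 (adjusted p in limma = 0.859) that became -0.28 without tdTOMATO- replicate 3. *Chrdl1* (chordin-like, a BMP trap) had 106, 22.3 and 63.3 in tdTOMATO+ colonies, against 65.3, 95.4 and 259 in tdTOMATO- colonies, an order among tdTOMATO- colonies opposite to that of *Grem1* (log2 fold change -1.12, limma adjusted p = 0.629, and from -1.61 to -0.51 with 1 colony left out). *Bmpr1b*, a type I BMP receptor, had 12.4, 16.3 and 16.1 in tdTOMATO+ colonies, against 20.6, 21.2 and 2.00 in tdTOMATO- colonies. The order of the colonies in these genes thus did not follow the reporter label.

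Beyond the 53 genes, 69 other genes of the pathway had values (further ligands, co-receptors, processing enzymes, ubiquitin ligases, phosphatases and targets), and limma called 0 of them higher (all genes, 1.20%) and 1 lower (1.45%, against 0.143% of all genes). edgeR likewise called 0 higher and 1 lower, and DESeq2 called 1 higher (1.45%, against 3.52%) and 3 lower (4.35%, against 1.12%). At an unadjusted p under 0.05 limma had 2 higher (2.90%, against 7.53%) and 8 lower (11.6%, against 4.79%). The gene called by all 3 tools was *Pcsk6*, a proprotein convertase (PACE4) that can cut the precursors of BMP and nodal ligands. It had 673, 623 and 528 normalized counts in tdTOMATO+ colonies, against 1200, 2302 and 1805 in tdTOMATO- colonies, with no overlap. It was 2.82-fold lower in tdTOMATO+ colonies (log2 fold change -1.50, SE 0.24, limma adjusted p = 0.0484), and the adjusted p was 0.0316 in edgeR and 3.97e-09 in DESeq2. Close to the threshold, its limma call held without tdTOMATO- replicate 1 (adjusted p = 0.00749) but not without tdTOMATO+ replicates 1, 2 and 3 (0.123, 0.186 and 0.152) or tdTOMATO- replicates 2 and 3 (0.0778 and 0.130).

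*Furin*, a convertase with overlapping substrates, had 4309, 4648 and 4288 normalized counts in tdTOMATO+ colonies, against 4183, 4340 and 4643 in tdTOMATO- colonies, which overlapped (log2 fold change 0.01, 95% interval -0.15 to 0.17). This interval leaves out a fold change of the size measured for *Pcsk6*. The 4 other genes with the smallest p were *Stub1*, a ubiquitin ligase that acts on SMAD proteins (log2 fold change -0.25, limma adjusted p = 0.213), *Nedd4l*, another such ligase (0.30, 0.238), *Hey1*, a transcription factor induced by BMP and Notch (-1.18, 0.257), and *Junb*, an early TGF-beta target (-0.50, 0.298). All 4 had groups without overlap, which goes with their choice by small p, and none passed the test in limma. Of the 69 genes, 3 lay higher without overlap (4.35%, against 9.89% of all genes) and 8 lower (11.6%, against 8.33%). *Stub1* shares 1084 exonic bases with *Jmjd8* and *Junb* shares 173 with *Prdx2*, both on the opposite strand, so part of their reads may belong to those genes. Of the 3 tools, DESeq2 alone called *Hey1* lower (adjusted p = 0.0291) and *Htra1*, a secreted protease that binds TGF-beta family proteins, higher (0.0229).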

How the data were processed

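Bulk RNA-seq libraries of 6 CFU-F colonies (3 of each kind) were analysed, with groups and replicate numbers from the sample titles. The authors used TrimGalore with Cutadapt for trimming, STAR for alignment to GRCm38 (unique hits only), HTSeq for gene counts and DESeq2 for size factors, and genes below 10 reads in every library had been dropped. Versions are not given in the sources used here. In the table the authors deposited, the signal of a gene is this normalized count, given for 14735 genes, 13517 of them coding. The authors' fold changes, p-values, subsets and gene ontology results (7 further tables) were not used.

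Whole reads were recovered for 100% of the values within a tolerance of 0.001. For replicate 3 of each group this rests on unrounded values, since the step was near 1. limma 3.58.1 (R 4.3.3, eBayes with trend and robust) was run two-sided on log2 of the normalized count plus a pseudocount of 1, a scale that understates the change of low genes. edgeR 4.0.16 (quasi-likelihood, TMM) and DESeq2 1.42.0 were run on recovered reads. All were tested on simulated data. Further alternatives were TMM scaling in limma, a pseudocount of 10, a mean of at least 30 normalized counts (12303 genes), no trend, the replicate number as a block, and each colony left out. Exonic lengths and gene overlaps came from GENCODE M21. At this depth, genes of a few reads carry a large counting error. The genes and lists were chosen with earlier results of these data known. Values per colony are given for genes called by a tool, without overlap between groups, with an absolute log2 fold change of at least 1, or highest in their class, and for the called other pathway genes, with the next 4 by p named. *Gdf15*, *Inhbb*, *Smad6*, *Eng*, *Grem1*, *Bmpr1b*, *Tgfbr1*, *Nog*, *Bmp8b*, *Furin*, *Pdgfra*, *Prrx1*, *Lepr*, *Ibsp*, *Runx2*, *Cspg4* and *Sox9* were added after their values were seen. So were *Bmp2*, *Bmp6*, *Id1*, *Id2*, *Fst* and *Htra1*. Some genes of the wider pathway lists are counted but not reported here by name.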

Additional observations from a re-analysis of the deposited data

How the results depend on the processing

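Over all 14735 genes limma called 177 higher and 21 lower, DESeq2 called 498 and 159, and limma without the trend called 1 and 0, so counts of calls depend on the tool and the variance model. Of the 52 genes, DESeq2 called 3 higher against 1 in the limma fit, and without the trend limma called 0 higher and 0 lower, where *Bmp5* had an adjusted p of 0.0736 and *Tgfbr2* of 0.101. With 1 colony left out, 0 to 2 of the 52 genes were called higher and 0 to 3 lower. Both lower ends were reached when tdTOMATO+ replicate 1, tdTOMATO+ replicate 2 or tdTOMATO- replicate 2 was left out. The upper ends came when tdTOMATO- replicate 1 was dropped. Calls over all genes also fell in the fits at the lower ends, in that order to 9, 1 and 15 higher and 8, 0 and 1 lower. The fit at the upper ends called 178 of all genes higher and 44 lower. The 0 counts are thus not particular to the 52 genes, and lower calls at the upper ends rose over all genes too. Each fit with a colony left out has fewer samples. Same-numbered colonies deviated together with r of 0.0952, 0.000354 and 0.149 for replicates 1, 2 and 3 across genes. Replicates 1 and 3 correlated best with their own number, and replicate 2 did not. Whether same-numbered colonies shared a mouse or batch cannot be told from these values, and the main test used no pairing. With the replicate number as a block, 0 of the 52 genes were called higher and 0 lower (*Bmp5* 0.0596, *Tgfbr2* 0.0514). That fit called 124 of all 14735 genes higher and 24 lower. The log2 fold change of *Eng* was -0.32 in edgeR and -0.32 in DESeq2, and with 1 colony left out it ran from -0.91 to 0.86. With 1 colony left out, the log2 fold change ran from -0.47 to 0.97 for *Bmpr1b*, from -0.28 to 1.19 for *Grem1*, from -0.11 to 0.19 for *Fstl1*, from -0.033 to 0.0623 for *Smad5*, from -0.0286 to 0.0503 for *Furin*, from -0.63 to 0.0757 for *Id1* and from -0.38 to 0.29 for *Ltbp2*. The other 35 of the 43 genes recomputed kept their direction under each alternative run. The mean filter gave no value for *Bmp6*, *Bmp8a*, *Gdf5*, *Gdf10* and *Bmpr1b*, which lie under it, and DESeq2 gave no adjusted p for *Gdf5*.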
